A study of Homo sapiens with 20 samples.

Results

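The host genes of expressed miRNAs are genes whose primary transcripts contain miRNA hairpins. The 10 described here were taken by name from the gene table, each beside the miRNAs it carries. They are MIR3142HG, MIR155HG, MIR17HG, MIR31HG, MIR22HG, MIR210HG, MIR100HG, VMP1, EGFL7 and ANK1, 10 of the 54261 features of the gene table. They carry 35 of the 2656 mature miRNAs of the miRNA table. In that order the miRNAs are miR-146a with miR-3142, miR-155, the miR-17-92 cluster, miR-31, miR-22, miR-210, let-7a-2 with miR-100 and miR-125b-1, miR-21, miR-126 and miR-486. A low-count filter left 9 hosts and 31 mature miRNAs for testing.

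A host gene and its miRNAs begin as the same RNA. In the nucleus Drosha and DGCR8 cut the hairpin from the primary transcript, Dicer trims it to a duplex in the cytoplasm, and 1 arm of the duplex is usually loaded into an Argonaute protein. The spliced host transcript and the mature miRNA then have separate lifetimes, so the level of each is set by its own synthesis, processing and decay. Among these hosts, MIR3142HG and MIR155HG are known as inflammatory genes under NF-kB and AP-1, MIR17HG as a Myc target in dividing cells, and MIR210HG as a gene induced by hypoxia. VMP1 encodes an endoplasmic reticulum protein of autophagy, EGFL7 a secreted protein of endothelial cells, and ANK1 the ankyrin of the red cell membrane skeleton.

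The libraries came from TPC-1, a human cell line of papillary thyroid cancer. Cells cocultured for 48 h with PMN-MDSCs, polymorphonuclear myeloid-derived suppressor cells that restrain T cells in tumours, gave 6 RNA-seq and 6 miRNA-seq libraries. Untreated TPC-1 cells, the control, gave 4 libraries of each kind. No genetic change is labelled, and all libraries share the one line. The origin of the PMN-MDSCs, the mode of coculture and any removal of them before lysis are not stated in the sources used here. Whether libraries of 1 group are from separate cultures is not labelled, and p-values therefore measure the spread among these samples alone, which may be technical.

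The mature sequences on which the results turn are shown 5′ to 3′ from RefSeq, GRCh38.p14, with the seed (bases 2 to 8, which pair with targets) in capitals. The first set is shown because it holds the carried miRNAs that differed between the groups, miR-146a-5p and miR-146a-3p. It also holds miR-146b-5p from chromosome 10, which has the seed of miR-146a-5p but comes from another locus.
miR-146a-5p: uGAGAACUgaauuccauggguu
miR-146a-3p: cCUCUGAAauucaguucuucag
miR-146b-5p: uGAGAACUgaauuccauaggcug
The mir-146a hairpin lies on the plus strand of chromosome 5, at chr5:160485352-160485450, inside the transcribed region of MIR3142HG. It is printed whole, with both mature arms in capitals, because both arms moved together.
mir-146a hairpin: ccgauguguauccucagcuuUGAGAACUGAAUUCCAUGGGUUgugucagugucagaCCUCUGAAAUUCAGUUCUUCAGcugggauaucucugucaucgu
The second set holds products of the other hosts whose values are given here, grouped where a seed is shared. The miR-17-92 members miR-17-5p and miR-20a-5p share 1 seed, miR-19a-3p and miR-19b-3p share another, and miR-92a-3p has its own.
miR-17-5p: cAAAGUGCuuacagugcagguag
miR-20a-5p: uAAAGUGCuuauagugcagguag
miR-19a-3p: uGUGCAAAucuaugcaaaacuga
miR-19b-3p: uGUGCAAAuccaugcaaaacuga
miR-92a-3p: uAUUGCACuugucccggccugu
miR-155-5p: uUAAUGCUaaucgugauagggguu
miR-31-5p: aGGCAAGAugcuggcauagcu
miR-22-3p: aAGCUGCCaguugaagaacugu
miR-210-3p: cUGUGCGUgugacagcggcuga
miR-100-5p: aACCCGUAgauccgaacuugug
miR-21-5p: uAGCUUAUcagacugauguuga
miR-126-3p: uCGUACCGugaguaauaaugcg
RefSeq sequences were read for 31 carried miRNAs, and all 31 equalled the deposited mature sequences. The mature miR-19b-3p, miR-92a-3p, let-7a-5p and miR-125b-5p also come from hairpins at other loci, so their counts do not belong to these hosts alone.

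RNA-seq totals were 40237801 to 48197608 counts, and miRNA-seq totals were 3971608 to 5895539. Values are CPM, read counts scaled to a common library total with TMM factors, as mean ± SD. In a principal component analysis of RNA-seq, component 1 (39.3% of the variance) set coculture 1 and 2, at -66.1 and -60.6, apart from the remaining 8 libraries, at 0.908 to 31.8. The miRNA library labelled control 4 stood apart from the other 3 controls in miRNAs of blood cells. Both facts touch members, and values without those libraries are given beside the host values that they moved most. The labelled line was checked against thyroid and epithelial markers, of which 7 of 12 were testable. PAX8, a thyroid transcription factor, was at 625 ± 107 CPM in coculture and 508 ± 11.2 CPM in controls, and KRT18, a keratin of simple epithelia, at 356 ± 58.6 CPM in coculture and 350 ± 43.9 CPM in controls. The other 5, defining thyroid markers among them, had too few counts to be tested. None of the 7 was called with edgeR, DESeq2 or limma-voom, and 2 had an unadjusted edgeR p under 0.05, against 9.66% of all genes.

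MIR3142HG was the only host that passed the test, and it rose in coculture together with both arms of miR-146a. Of the 9 hosts tested with edgeR's quasi-likelihood test, 1 was higher, 0 were lower and 8 were not called at an adjusted p under 0.05. Over all 15629 genes, 1.14% were called higher and 0.186% lower, 1.32% in all. At an unadjusted p under 0.05 there were 4 hosts, against 9.66% of all genes. DESeq2 called 2 hosts and 2.81% of all genes, and limma-voom 1 host and 1.15% of all genes. Log2 fold changes were above 0 for 6 hosts and below 0 for 3, with a median of 0.41, against 0.01 over all genes. Of the 31 carried miRNAs tested, 2 were higher, 0 lower and 29 not called, while 1.13% of all 797 miRNAs were called higher and 0.125% lower, 1.25% in all. There were 6 carried miRNAs at an unadjusted p under 0.05, against 11.4% of all miRNAs. DESeq2 and limma-voom each called 2, and over all miRNAs they called 2.03% with DESeq2 and 1.25% with limma-voom. Their median log2 fold change was 0.13, against -0.05 over all miRNAs.

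**Figure D1:**
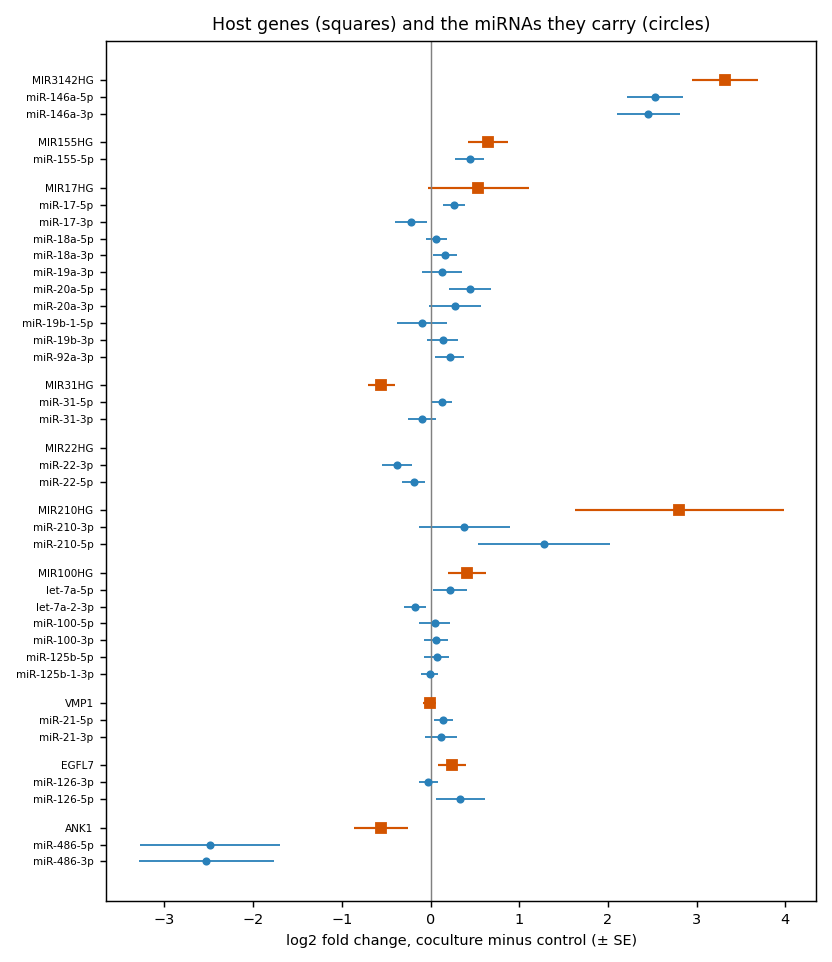
Log2 fold change (coculture over control, x axis) of the tested host genes and of their carried miRNAs, with bars for the standard error (SE) of the edgeR fit. MIR3142HG at 3.32, miR-146a-5p at 2.53 and miR-146a-3p at 2.45 are the values that passed the test. The long bars belong to MIR210HG, MIR17HG, miR-210 and miR-486.

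MIR3142HG is a long noncoding RNA whose best known product is miR-146a, a miRNA that NF-kB induces and that restrains Toll-like and interleukin 1 receptor signalling through IRAK1 and TRAF6. In the deposited table, on GRCh38.p10 per the submitters' processing notes, it spans chr5:160468251-160487426 on the plus strand. Its level was 10.8, 6.70, 4.39, 9.41, 4.35 and 4.82 CPM in coculture 1 to 6, from 172 to 473 counts. Controls 1 to 4 had 1.0, 0.618, 0.364 and 0.700 CPM, from 15 to 47 counts. The groups did not overlap, which held with coculture higher for 2.45% of all genes tested and with coculture lower for 1.17%. The log2 rise of MIR3142HG was 3.32 ± 0.37 (SE), with an edgeR adjusted p of 0.000689. The change was 3.07 without coculture 1 and 2, an omission chosen after seeing the data, with an edgeR adjusted p of 0.000271.

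Mature miR-146a-5p followed the same order of groups. It was at 909, 581, 262, 529, 312 and 493 CPM in coculture 1 to 6 and at 75.8, 96.2, 95.6 and 88.2 CPM in controls 1 to 4. Every coculture library lay above every control library, a separation seen with coculture higher for 1.88% of the miRNAs tested and with coculture lower for 1.38%. The log2 rise was 2.53 ± 0.31 (edgeR adjusted p = 0.00165). The opposite arm, miR-146a-3p, averaged 101 ± 55.5 CPM over the 6 coculture libraries and 18.4 ± 2.42 CPM over the 4 controls. Its log2 rise of 2.45 ± 0.36 passed the test (edgeR adjusted p = 0.00298). Coculture 1 was the highest and coculture 3 the lowest of its group for both arms. miR-3142, the other hairpin of this host, had 1 to 3 counts in the coculture libraries and 0 to 2 in the controls and was not tested. Host and miRNA fold changes come from tables counted and normalized separately, so the difference between 3.32 and 2.53 was not tested.

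**Figure D2:**
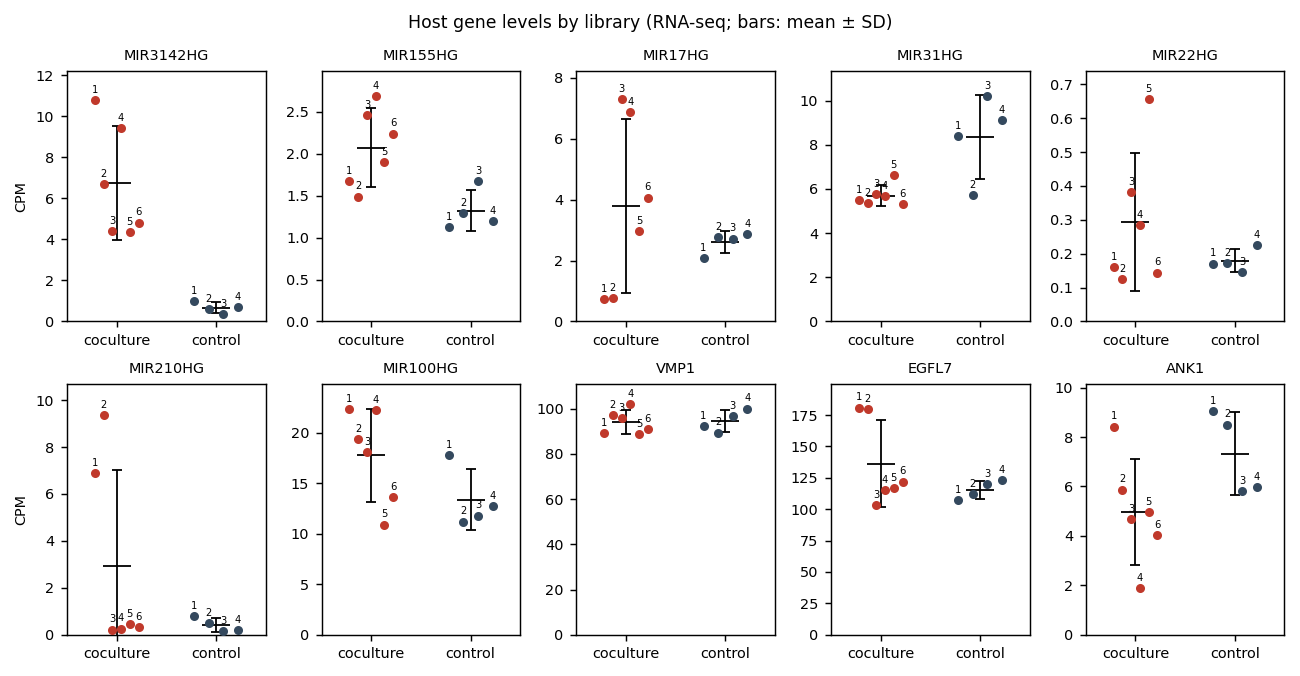
CPM of each host gene (RNA-seq, y axis) by library, coculture left of control, with library numbers at the points and bars for mean ± SD. MIR3142HG is at 4.35 to 10.8 CPM in coculture and 0.364 to 1.0 CPM in controls, and MIR210HG is at 6.88 and 9.37 CPM in coculture 1 and 2 and at 0.790 CPM or less elsewhere.

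Markers of leukocytes moved with the coculture label as well. Of 20 leukocyte and myeloid markers 13 were testable, of which 12 rose, 0 fell and 1 was not called. Over all genes 1.14% were called higher. Only 3 of the 13 had a control mean of at least 1 CPM. Those near 0 in controls passed the low-count filter through the coculture libraries, so a fall could not have been seen for them. The list summed to 53.2 to 83.1 CPM in coculture and 15.0 to 15.5 CPM in controls. ITGB2, the beta chain of leukocyte integrins, was at 11.2 ± 2.53 CPM in coculture and 1.5 ± 0.263 CPM in controls. CD14, a coreceptor for lipopolysaccharide, was at 2.90 ± 1.22 CPM in coculture and 0.0862 ± 0.0435 CPM in controls. Of the genes of neutrophils and their precursors, S100A9 rose to 0.931 ± 0.521 CPM in coculture, against 0.00534 ± 0.0107 CPM in controls (edgeR adjusted p = 0.000998). S100A8 had 6 to 12 counts in the coculture libraries and 0 in every control. CSF3R and MPO had up to 6 counts in some coculture libraries and 0 in every control, and FCGR3B and ELANE were at 0 in all 10 libraries. In all, 9 markers were at 0 in every control. Of 10 lymphoid markers only IL7R was testable, and it was called higher with edgeR (adjusted p = 0.0353) and DESeq2 but not with limma-voom. At 0.113 to 0.388 CPM in controls, IL7R passed the low-count filter through the coculture libraries, so a fall could not have been seen. The lymphoid list was at 0.811 to 5.68 CPM in coculture and 0.203 to 0.470 CPM in controls. In bulk libraries, more cells of a type and more RNA per cell cannot be told apart, and the part of these cells in the MIR3142HG result was not tested. Among the miRNA libraries, control 4 stood apart from the other controls in leukocyte miRNAs too. Its miR-223-3p, a myeloid miRNA, was at 54.0 CPM, within the 34.9 to 82.3 CPM of coculture and above the 3.14 to 3.18 CPM of controls 1 to 3. Its miR-142-3p, a pan-leukocyte miRNA, was at 60.5 CPM, within the 27.4 to 101 CPM of coculture and above the 2.81 to 4.13 CPM of controls 1 to 3. The other arm, miR-142-5p, was at 464 CPM in control 4, above the 41.2 to 198 CPM of coculture. miR-223-5p was at 3.1 CPM in control 4, below the 4.29 to 7.3 CPM of coculture. miR-150-5p in control 4 lay within its coculture range of 5.09 to 70.2 CPM. Each of these was above its level in controls 1 to 3. In control 4 miR-146a-5p was at 88.2 CPM, within the range of the other controls. The part of leukocyte RNA in the miR-146a values was not tested.

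The start of MIR3142HG is shown because this host carries the called change. The window runs from 250 bases before to 50 after the RefSeq start, at chr5:160468001-160468300 on the plus strand of GRCh38.p14, and the capitals mark a match to the NF-kB consensus motif.
MIR3142HG start: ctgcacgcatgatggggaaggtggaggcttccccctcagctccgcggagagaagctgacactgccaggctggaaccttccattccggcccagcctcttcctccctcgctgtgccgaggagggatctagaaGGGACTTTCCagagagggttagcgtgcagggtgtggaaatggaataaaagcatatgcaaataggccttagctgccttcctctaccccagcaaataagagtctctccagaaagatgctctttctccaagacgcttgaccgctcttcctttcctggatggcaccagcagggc
The match begins at position -120 from the start. Motifs were searched on both strands and were chosen after the sequences had been seen. The NF-kB consensus occurred in 3956 of 35116 RefSeq windows of this length, 11.3%, and among the other 8 hosts searched in windows of MIR100HG and EGFL7. The AP-1 motif TGANTCA, in 7.71% of all windows, matched MIR155HG alone among the 9 hosts, at position -60. A match describes these letters and shows no binding, and the lack of a match says nothing about the factor.

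By the naming rule, the tested genes most like MIR3142HG across the 10 RNA-seq libraries, after each group's mean was removed, were PARP8, LIMK2 and HEATR5A among 12865 genes of at least 1 CPM. PARP8, a mono-ADP-ribosyltransferase, had r = 0.93 and was at 20.1 ± 2.45 CPM in coculture and 15.1 ± 2.57 CPM in controls. LIMK2, a kinase that phosphorylates cofilin, had r = 0.92 and was at 43.4 ± 7.37 CPM in coculture, where it rose, and 23.0 ± 1.95 CPM in controls (edgeR adjusted p = 0.00295). HEATR5A, a HEAT-repeat protein gene, had r = 0.91 and was at 18.3 ± 2.35 CPM in coculture and 20.7 ± 3.63 CPM in controls. List members named outside that rule, after their values were seen, were S100A8, S100A9, CSF3R, MPO, FCGR3B, ELANE, EMCN, HBB, PDK1, CA9, miR-223-3p, miR-223-5p, miR-142-3p, miR-150-5p, miR-144-5p and miR-363-3p. The correlations describe 10 libraries that share the split of coculture 1 and 2 from the rest. They were picked as the highest among 12865 genes, and what r such a pick gives for unrelated genes was not tested.

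MIR155HG, known as BIC, is the noncoding host of miR-155, a miRNA of activated lymphocytes and macrophages. It was at 1.67, 1.49, 2.46, 2.69, 1.90 and 2.24 CPM in coculture 1 to 6 and at 1.13, 1.29, 1.67 and 1.2 CPM in controls 1 to 4. The groups overlapped through coculture 2, which lay below control 3, while coculture 1 and control 3 were level to 3 digits. A log2 fold change of 0.65 ± 0.22 did not pass (edgeR adjusted p = 0.297). Mature miR-155-5p was already abundant in controls, at 3110 ± 393 CPM in coculture and 2293 ± 571 CPM in controls, and its log2 fold change of 0.44 ± 0.16 did not pass (edgeR adjusted p = 0.320). It ranged over 2658 to 3765 CPM in coculture and 1693 to 3039 CPM in controls, and the groups overlapped through control 1. miR-155-3p had 5 to 15 counts in coculture and 3 to 9 in controls and was not tested. On the other strand of MIR155HG lay 2 uncharacterised genes with 30 and 35 counts over all libraries, and reads of overlapping genes cannot be told apart where the use of strand is not given.

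MIR17HG carries the miR-17-92 cluster, 6 hairpins that promote cell cycle entry and survival. It was at 0.734 and 0.779 CPM in coculture 1 and 2, at 7.30, 6.87, 2.98 and 4.07 CPM in coculture 3 to 6, and at 2.07, 2.77, 2.72 and 2.87 CPM in controls. The coculture group thus spanned the controls on both sides, and the log2 fold change of 0.54 ± 0.57 did not pass (edgeR adjusted p = 0.803). Without coculture 1 and 2 it was 1.02 (edgeR adjusted p = 0.0682). Coculture 1 and 2 did not stand apart in mature miR-17-5p. Its level was 5324, 5736, 5705, 4629, 5839 and 5010 CPM in coculture 1 to 6, against 5449, 4532, 3888 and 4044 CPM in controls 1 to 4. Its sister of the same seed, miR-20a-5p, was at 5363 ± 855 CPM in coculture and 3931 ± 1691 CPM in controls, with control 3 lowest at 2167 CPM. miR-92a-3p, the most abundant product of the cluster, was at 14013 ± 1419 CPM in coculture and 12056 ± 3172 CPM in controls. miR-19a-3p was at 270 ± 63.6 CPM in coculture and 247 ± 72.9 CPM in controls, and its seed mate miR-19b-3p at 324 ± 50.6 CPM in coculture and 295 ± 72.2 CPM in controls. None of the 10 mature miRNAs of the cluster that were tested was called with edgeR, DESeq2 or limma-voom or had an unadjusted edgeR p under 0.05, and miR-19a-5p and miR-92a-1-5p had too few counts.

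**Figure D3:**
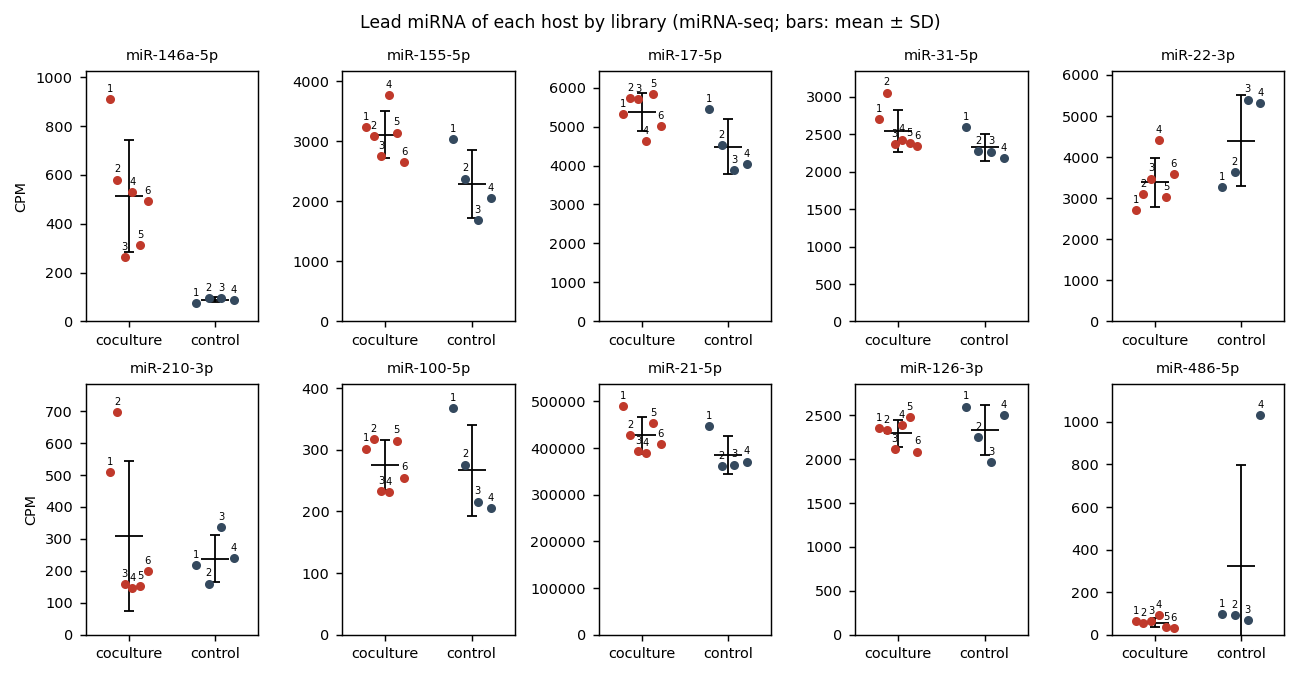
CPM of 1 miRNA of each host (miRNA-seq, y axis) by library, coculture left of control, with library numbers at the points and bars for mean ± SD. miR-146a-5p is at 262 to 909 CPM in coculture and 75.8 to 96.2 CPM in controls, and miR-486-5p is at 1032 CPM in control 4 alone.

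MIR31HG is the noncoding host of miR-31, a miRNA of epithelial cells with reported roles for and against invasion. It was at 5.48, 5.35, 5.75, 5.66, 6.62 and 5.32 CPM in coculture 1 to 6 and at 8.40, 5.73, 10.2 and 9.10 CPM in controls 1 to 4. Control 2 lay inside the coculture range and the other controls lay above it. At a log2 fold change of -0.55 ± 0.16 the edgeR adjusted p was 0.159, and 0.0305 without control 2. DESeq2 gave an adjusted p of 0.0271. miR-31-5p was at 2548 ± 283 CPM in coculture and 2330 ± 181 CPM in controls, with a log2 fold change of 0.13 ± 0.11 (edgeR adjusted p = 0.651). IFNE, an interferon gene on the same strand within the deposited span, had 162 counts over all libraries.

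MIR22HG had 6 to 26 counts in coculture and 6 to 10 in controls, and the low-count filter removed it. Its product miR-22-3p, which is linked to growth arrest and metabolism, was abundant nevertheless. It was at 2715, 3102, 3479, 4412, 3032 and 3581 CPM in coculture 1 to 6 and at 3271, 3632, 5398 and 5313 CPM in controls 1 to 4. Controls 3 and 4 lay above every coculture library and controls 1 and 2 within their range. The log2 fold change of -0.38 ± 0.17 did not pass (edgeR adjusted p = 0.432).

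MIR210HG and miR-210 are known targets of HIF1A, the transcription factor of the hypoxia response. MIR210HG was at 6.88 and 9.37 CPM in coculture 1 and 2, from 300 and 445 counts. In coculture 3 to 6 it was at 0.215, 0.261, 0.455 and 0.337 CPM and in controls 1 to 4 at 0.790, 0.494, 0.170 and 0.203 CPM, from 7 to 37 counts. Only those 2 coculture libraries lay above the controls. The log2 fold change was 2.80 ± 1.18 (edgeR adjusted p = 0.454) with them and -0.41 (edgeR adjusted p = 0.764) without them. miR-210-3p was at 509 and 696 CPM in coculture 1 and 2, at 159, 146, 153 and 199 CPM in coculture 3 to 6 and at 217, 160, 337 and 239 CPM in controls. Its log2 fold change was 0.38 ± 0.51 (edgeR adjusted p = 0.786), and -0.53 without coculture 1 and 2. The rarer arm miR-210-5p was at 9.57 and 17.4 CPM in the same 2 libraries and at 1.28 to 3.78 CPM in the other 8. Thus the host and both arms were highest in the libraries labelled coculture 1 and 2 of each assay.

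A list of 8 hypoxia-induced genes, chosen after these values were seen, was read in the same libraries. It summed to 347 to 1074 CPM in coculture and 353 to 417 CPM in controls. NDRG1, a stress-induced cytoplasmic protein, was at 621 and 694 CPM in coculture 1 and 2, at 172 to 204 CPM in coculture 3 to 6 and at 178 to 243 CPM in controls. VEGFA, a growth factor for blood vessels, was at 160 and 158 CPM in coculture 1 and 2, at 67.5 to 99.3 CPM in coculture 3 to 6 and at 58.3 to 79.5 CPM in controls. PDK1, the kinase that restrains pyruvate dehydrogenase, was at 20.1 and 24.7 CPM in coculture 1 and 2 and at 7.41 to 10.7 CPM in the other 8 libraries. CA9, carbonic anhydrase 9, was at 0.0688 CPM or less everywhere. None of the 6 tested members was called with edgeR, DESeq2 or limma-voom. At an unadjusted edgeR p under 0.05 there were 2, against 9.66% of all genes. The part of the listed genes in the MIR210HG values was not tested.

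The deposited row of MIR210HG spans chr11:95312-568457, and 38 other features with counts overlap it, 16 of them on the other strand, so its count is uncertain. RefSeq on GRCh38.p14 gives the gene chr11:565657-568457 on the minus strand. Its start is printed because host and miRNA were both highest in coculture 1 and 2, with a match to the hypoxia response element ACGTG in capitals, at chr11:568408-568707 and on the gene's own strand.
MIR210HG start: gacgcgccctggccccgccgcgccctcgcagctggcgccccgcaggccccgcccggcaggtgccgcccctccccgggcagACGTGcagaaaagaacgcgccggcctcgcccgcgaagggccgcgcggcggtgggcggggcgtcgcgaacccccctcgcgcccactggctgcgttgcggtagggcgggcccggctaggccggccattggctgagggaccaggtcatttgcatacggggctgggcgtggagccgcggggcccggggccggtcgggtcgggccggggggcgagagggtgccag
The match begins at position -170. ACGTG occurred in 21.4% of all windows of this length, and also in those of MIR155HG, MIR22HG, MIR100HG, VMP1 and EGFL7.

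MIR100HG hosts let-7a-2, miR-100 and miR-125b-1, miRNAs of differentiated tissue that restrain growth genes. It was at 22.3, 19.4, 18.1, 22.2, 10.9 and 13.6 CPM in coculture 1 to 6 and at 17.8, 11.2, 11.8 and 12.7 CPM in controls 1 to 4, with overlap. Its log2 fold change of 0.41 ± 0.21 did not pass (edgeR adjusted p = 0.571), and it was 0.26 without coculture 1 and 2 (edgeR adjusted p = 0.640). miR-100-5p was at 276 ± 40.8 CPM in coculture and 266 ± 74.3 CPM in controls. The arm that only this locus makes, miR-125b-1-3p, was at 865 ± 57.6 CPM in coculture and 871 ± 32.6 CPM in controls, with a log2 fold change of -0.01 ± 0.09. let-7a-2-3p, also of this locus alone, was at 73.1 ± 6.94 CPM in coculture and 82.6 ± 8.82 CPM in controls. None of the 6 tested miRNAs of this host was called with edgeR, DESeq2 or limma-voom or had an unadjusted edgeR p under 0.05.

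VMP1, the host with the highest level per kilobase of transcript, varied little between libraries. It was at 89.2, 97.0, 95.9, 102, 88.6 and 91.0 CPM in coculture 1 to 6 and at 92.1, 89.4, 96.6 and 100 CPM in controls 1 to 4. VMP1 had a log2 fold change of -0.01 ± 0.07 (edgeR adjusted p = 0.976). PTRH2, on the other strand, overlaps 97 bases of VMP1 and had 14220 counts over all libraries, so reads in that overlap are uncertain. VMP1 hosts miR-21, a miRNA raised in many carcinomas, which also has a promoter of its own in an intron of VMP1. RefSeq on GRCh38.p14 places the miR-21 hairpin inside VMP1, but it begins 673 bases past the end of the deposited VMP1 row, so that row does not cover it. miR-21-5p was at 427004 ± 38906 CPM in coculture and 386144 ± 40702 CPM in controls, with a log2 fold change of 0.15 ± 0.11 (edgeR adjusted p = 0.600). Control 1, at 446932 CPM, stood above the other 3 controls and within the coculture range. miR-21-3p was at 1345 ± 318 CPM in coculture and 1243 ± 148 CPM in controls.

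EGFL7, the host of miR-126, was at 181 and 180 CPM in coculture 1 and 2, at 103, 115, 117 and 122 CPM in coculture 3 to 6 and at 107, 112, 120 and 123 CPM in controls. Again coculture 1 and 2 stood apart. EGFL7 had a log2 fold change of 0.24 ± 0.16 (edgeR adjusted p = 0.673), and -0.03 without them. miR-126-3p, which is best known from endothelium, did not follow, at 2351 and 2333 CPM in coculture 1 and 2, 2086 to 2480 CPM over all coculture libraries and 1969 to 2598 CPM in controls. Of 11 endothelial markers 5 were testable and 0 were called with edgeR, 1 with DESeq2 and 0 with limma-voom, with 1 at an unadjusted p under 0.05. Over all genes the shares were 1.32%, 2.81% and 1.15% with these tools, and 9.66% at that unadjusted p. ROBO4, an endothelial guidance receptor, was at 16.8 ± 2.54 CPM in coculture and 15.0 ± 1.10 CPM in controls, and TIE1, a receptor kinase of endothelium, was at 2.83 ± 0.982 CPM in coculture and 1.45 ± 0.266 CPM in controls, without overlap (log2 fold change 0.97 ± 0.26, edgeR adjusted p = 0.130). A lack of overlap with coculture higher, as for TIE1, held for 2.45% of all genes tested. EMCN was at 0 in every library.

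ANK1 is transcribed across both miR-486 hairpins, which lie on opposite strands of 1 site and make the same mature arms. ANK1 was at 8.42, 5.87, 4.67, 1.90, 4.95 and 4.02 CPM in coculture 1 to 6 and at 9.04, 8.50, 5.82 and 5.96 CPM in controls 1 to 4. The groups overlapped, with coculture 4 the lowest library, and the log2 fold change of -0.56 ± 0.31 did not pass (edgeR adjusted p = 0.605), and it was -0.93 without coculture 1 and 2 (edgeR adjusted p = 0.109). miR-486-5p was at 64.8, 56.5, 65.7, 91.0, 35.0 and 32.4 CPM in coculture and at 95.9, 91.8, 69.4 and 1032 CPM in controls. miR-486-3p was at 70.1, 55.3, 63.4, 84.8, 32.8 and 34.6 CPM in coculture and at 100, 98.8, 78.2 and 1034 CPM in controls. Control 4 was far above every other library in both arms, while ANK1 in the RNA-seq library labelled control 4 was within the control range.

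The group difference of miR-486 rested on that library. The log2 fold change of miR-486-3p was -2.53 ± 0.76 (edgeR adjusted p = 0.259) with control 4 and -0.66 (edgeR adjusted p = 0.745) without it. For miR-486-5p it was -2.48 ± 0.79 (edgeR adjusted p = 0.270) with control 4 and -0.53 (edgeR adjusted p = 0.758) without it. Other miRNAs of red cells shared the pattern. miR-451a, an erythroid miRNA made without Dicer, was at 243 to 1241 CPM in coculture, at 810 to 1091 CPM in controls 1 to 3 and at 23154 CPM in control 4. miR-144-5p, its neighbour in the genome, was at 8.58 to 40.1 CPM in coculture, 29.2 to 40.5 CPM in controls 1 to 3 and 605 CPM in control 4. Across the 10 libraries, the ratio of miR-451a to miR-486-5p CPM stayed between 6.95 and 13.6 except in control 4, where it was 22.4. The 9 blood cell miRNAs summed to 391 to 1737 CPM in coculture and 876 to 24627 CPM in controls. Of the 8 tested, 0 were called with edgeR, 1 with DESeq2 and 1 with limma-voom, with 5 at an unadjusted p under 0.05. Over all miRNAs the shares were 1.25%, 2.03% and 1.25% with these tools, and 11.4% at that unadjusted p. In the RNA-seq libraries the 12 erythroid mRNA markers summed to 0.0688 CPM or less in coculture and 0.0989 CPM or less in controls, and 8 of them, HBB included, were at 0 in all 10. The part of blood cell RNA in the miR-486 values was not tested.

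**Figure D4:**
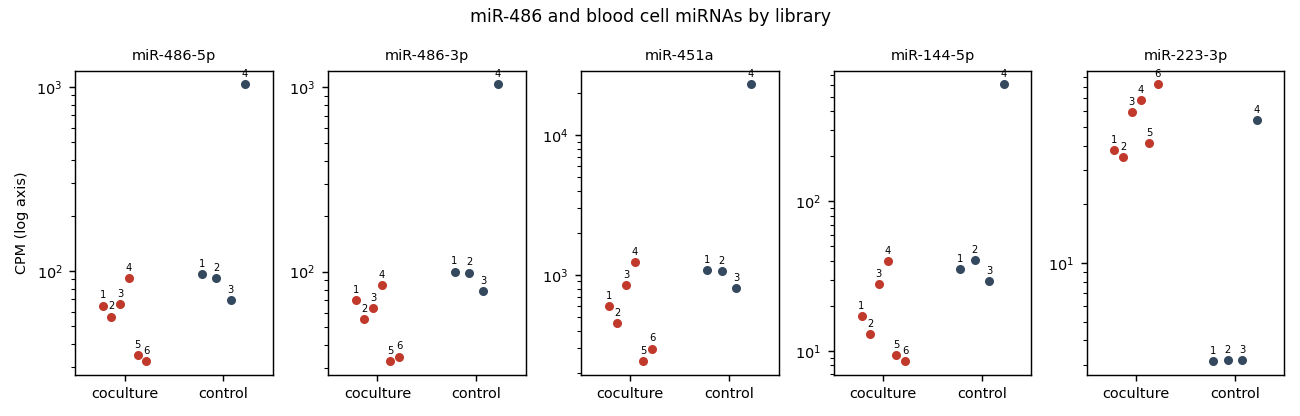
CPM by miRNA library (log y axis, coculture left of control) of both miR-486 arms beside red cell and leukocyte miRNAs. Control 4 is at 1032 and 1034 CPM for the miR-486 arms and at 23154 CPM for miR-451a, above every other library for each of these.

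The balance between the arms of a hairpin was compared within each library, which needs no scaling between libraries. Of 11 hairpins with enough counts in both arms, 0 differed between the groups in an exact two-sided permutation test over all 210 splits of 6 and 4 libraries, and 0 had an unadjusted p under 0.05. The smallest adjusted p was 0.489, and the smallest unadjusted p the design allows is 0.00476. For miR-146a the mean log2 ratio of 5p to 3p was 2.38 ± 0.21 in coculture (n = 6) and 2.27 ± 0.24 in controls (n = 4), with an exact permutation p of 0.452. For miR-21 it was 8.34 ± 0.35 in coculture and 8.28 ± 0.21 in controls. For miR-126, read as 3p over 5p, it was 4.49 ± 0.32 in coculture and 4.92 ± 0.55 in controls. miR-486 was the exception in level, with log2 ratios of -0.17 to 0.10 in the 10 libraries, where every other hairpin stayed at 1.02 or more. The arms of miR-486 are nearly each other's reverse complement. The longest run that the 5p arm shares with the reverse complement of the 3p arm is 20 of 22 bases, against 4 to 12 bases for the other 12 hairpins. Whether counting used the strand is not given in the sources used here, and its part in that ratio was not tested.

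Host and miRNA were also set side by side over the 10 libraries joined by label and number. The labels do not state that same-numbered libraries of the 2 assays are of 1 RNA. Pearson's r and Spearman's rho were computed for 10 pairs on log2 CPM with each group's mean removed, with permutation within groups, and 0 pairs passed after adjustment or at an unadjusted p under 0.05. MIR3142HG and miR-146a-5p had r = 0.555 (permutation p = 0.114, adjusted 0.414) and rho = 0.467 (permutation p = 0.192, adjusted 0.845). Without the 2 libraries farthest from the median of the host, r was 0.541. Within the 6 coculture libraries alone r was 0.857 (exact permutation p = 0.0319, adjusted 0.160). This subset was outside the plan and was run for all 10 pairs, none of which passed after adjustment. In controls 1 to 4 the host was at 1.0, 0.618, 0.364 and 0.700 CPM and miR-146a-5p at 75.8, 96.2, 95.6 and 88.2 CPM. Control 1 thus had the highest host level and the lowest miRNA level of the controls. For VMP1 and miR-21-5p r was -0.555 (permutation p = 0.124, adjusted 0.414) and rho -0.382 (permutation p = 0.307, adjusted 0.845), with r = -0.43 without the 2 farthest. For MIR210HG coculture 1 and 2 formed a cluster of their own, so no pooled value is given, and r was 0.281 over the other 8 libraries. The remaining 7 pairs lay between -0.326 and 0.158, and the sign of 5 of them turned when the libraries of 1 number were left out. ANK1 with miR-486-5p was at -0.246 and at 0.636 without number 4. MIR155HG with miR-155-5p was at -0.326, at 0.0776 without number 3 and at -0.699 without number 4. MIR100HG with miR-100-5p was at 0.158 and at -0.404 without number 1. MIR22HG with miR-22-3p was at 0.0987 and at -0.0611 without number 1 and -0.0559 without number 4, and EGFL7 with miR-126-3p at 0.112 and at -0.0434 without number 3.

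**Figure D5:**
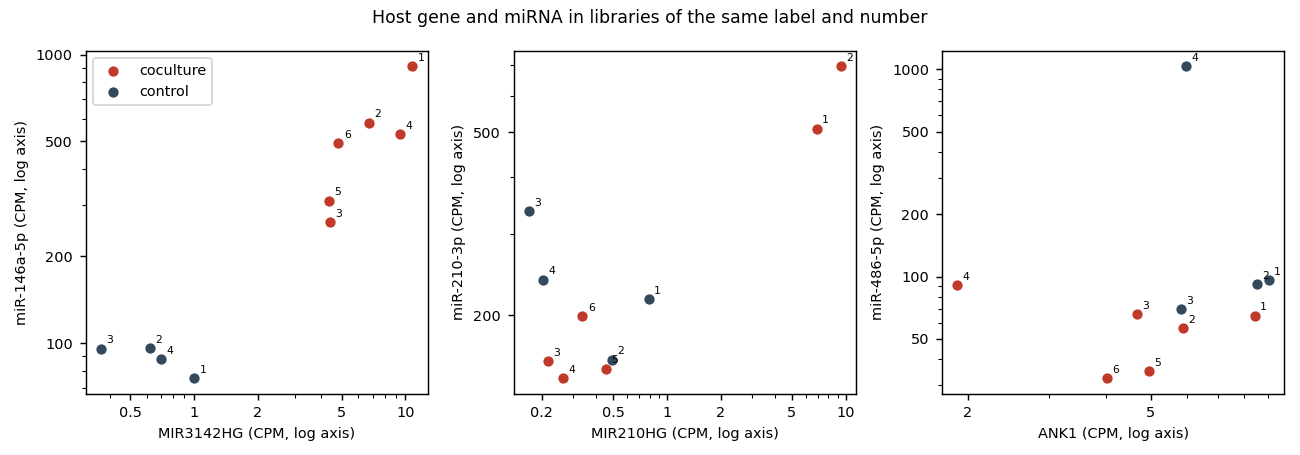
CPM of a host gene (RNA-seq, log x axis) against its miRNA (miRNA-seq, log y axis) in libraries of the same label and number, for MIR3142HG, MIR210HG and ANK1. The 6 coculture points of MIR3142HG lie above and right of all 4 control points, coculture 1 and 2 stand alone for MIR210HG, and control 4 stands alone for miR-486-5p at 1032 CPM.

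Set per kilobase of transcript, as the deposited lengths allow, the coculture levels were 43.2 CPM per kb for VMP1, 24.2 for EGFL7, 5.76 for MIR100HG, 2.91 for MIR3142HG and 2.65 for MIR31HG. In controls they were 43.5 CPM per kb for VMP1, 20.5 for EGFL7, 4.33 for MIR100HG, 0.290 for MIR3142HG and 3.89 for MIR31HG. MIR155HG was at 1.41 CPM per kb in coculture and 0.897 in controls, ANK1 at 0.579 in coculture and 0.853 in controls, and MIR17HG at 0.755 in coculture and 0.519 in controls. MIR3142HG thus stood beside MIR31HG in coculture, where their means differed by less than the SD of MIR3142HG (1.2 CPM per kb), and below MIR155HG, ANK1 and MIR17HG in controls. MIR210HG was at 0.634 CPM per kb in coculture and 0.0900 in controls, and MIR22HG, the lowest, at 0.110 in coculture and 0.0674 in controls.

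The other genes of the miRNA pathway were read from a list of 28 processing and decay factors, of which 26 were tested. With edgeR 1 was higher, 0 were lower and 25 were not called, while DESeq2 called 2 and limma-voom 1, and 4 had an unadjusted edgeR p under 0.05. Over all genes the shares were 1.32%, 2.81% and 1.15% with these tools, and 9.66% at that unadjusted p. ZC3H12A encodes regnase-1, an RNase that degrades inflammatory mRNAs and cuts the loops of some miRNA precursors. It was at 25.9, 22.3, 20.3, 53.3, 26.5 and 39.1 CPM in coculture 1 to 6 and at 6.67, 8.55, 6.79 and 6.87 CPM in controls 1 to 4, without overlap. That separation, with coculture higher, held for 2.45% of all genes tested. The log2 rise of ZC3H12A was 2.11 ± 0.27 (edgeR adjusted p = 0.00124). The part of the leukocytes whose markers rose in the same libraries was not tested. The nuclear enzyme DROSHA was at 54.7 ± 8.39 CPM in coculture and 60.2 ± 1.05 CPM in controls. Its lowest libraries were coculture 1 and 2, at 43.7 and 45.3 CPM. Its partner DGCR8 was at 36.3 and 39.0 CPM in those libraries, at 71.2 to 77.9 CPM in coculture 3 to 6 and at 63.5 to 75.3 CPM in controls. The cytoplasmic enzyme DICER1 was at 26.3 ± 3.19 CPM in coculture and 30.1 ± 5.43 CPM in controls. AGO2, the slicing Argonaute, was at 158 ± 22.6 CPM in coculture and 188 ± 26.8 CPM in controls. DROSHA, DGCR8, DICER1 and AGO2 were named for their place in the pathway, after their values were seen. By mean level the list was led by RAN, the GTPase of nuclear transport, at 951 ± 62.4 CPM in coculture and 1018 ± 114 CPM in controls. The list's median log2 fold change was -0.11, against 0.01 over all genes. Across 43 other miRNA hosts, 34 were tested and 0 were called with edgeR, 2 with DESeq2 and 0 with limma-voom, with 5 at an unadjusted p under 0.05 and a median of -0.04. SREBF2, the host of miR-33a and a regulator of cholesterol synthesis, was at 366 ± 80.5 CPM in coculture and 299 ± 60.6 CPM in controls. SMC4, the condensin subunit gene that hosts miR-15b and miR-16-2, was at 93.7 and 110 CPM in coculture 1 and 2, 217 to 357 CPM in coculture 3 to 6 and 208 to 270 CPM in controls. Coculture 1 and 2 were the lowest libraries for MIR17HG too, but there coculture 3 to 6 all lay above every control.

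Among 21 miRNAs from other loci that share a seed with a carried miRNA, all tested, 1 was higher, 0 were lower and 20 were not called with edgeR, DESeq2 and limma-voom each called 1, and 3 had an unadjusted edgeR p under 0.05. Over all miRNAs the shares were 1.25%, 2.03% and 1.25% with these tools, and 11.4% at that unadjusted p. The list member that rose was miR-146b-5p, whose seed is that of miR-146a-5p. It was at 19.3, 11.2, 11.9, 11.5, 7.32 and 13.1 CPM in coculture 1 to 6 and at 5.11, 5.56, 5.24 and 3.83 CPM in controls 1 to 4, without overlap. That separation, with coculture higher, held for 1.88% of all miRNAs tested. The log2 rise of miR-146b-5p was 1.33 ± 0.26 (edgeR adjusted p = 0.0241). Counts of miRNAs with such similar sequences are uncertain, since the sources used here give no matching rules. The other arm, miR-146b-3p, is outside the list and was named after its value was seen. It was at 7.99 ± 1.80 CPM in coculture and 3.59 ± 0.957 CPM in controls, without overlap. Its log2 rise was 1.15 ± 0.25 (edgeR adjusted p = 0.0426). let-7i-5p, the most abundant of the list, was at 137365 ± 11221 CPM in coculture and 144424 ± 20157 CPM in controls. miR-363-3p, which has the seed of miR-92a-3p, was at 8.34 to 32.5 CPM in coculture, 6.55 to 15.9 CPM in controls 1 to 3 and 259 CPM in control 4.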

How the data were processed

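RNA-seq and miRNA-seq were each analysed in 6 coculture and 4 control libraries, grouped by their treatment labels. The authors deposited raw read counts, whole numbers per gene and per mature miRNA. The submitters' processing notes name GRCh38.p10, BWA and HISAT2 2.0.4. Not given in the sources used here are the counting tool, its use of strand and trimming.

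Each table was fitted alone in R 4.3.3 with edgeR 4.0.16 (TMM, filterByExpr by group, robust glmQLFit, glmQLFTest, two-sided), with Benjamini-Hochberg adjustment over all 15629 genes or 797 miRNAs and a threshold of 0.05. Each SE is the absolute log2 fold change over the square root of its F statistic. In a library, 3 counts equal 0.0632 to 0.0758 CPM in RNA-seq and 0.534 to 0.715 CPM in miRNA-seq. Hairpins were compared by log2 arm ratios with a pseudocount of 0.5, for arms of at least 10 counts on average. The smallest chi-square per degree of freedom between libraries of a group was 6.86, so none agreed within sampling noise. Fits were tested on simulated counts.

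Alternatives were RLE factors, no scaling, no filter, DESeq2 1.42.0, limma-voom (limma 3.58.1), a replicate block, numbers 1 to 4 alone and leaving out libraries. Named were all members and their miRNAs, up to 4 called members of each list or its 2 most abundant, and the 3 genes most like a called host, with exceptions said in the text. The members and lists were chosen with earlier results of these data known.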

Additional observations from a re-analysis of the deposited data

Results flagged for a closer look

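Of the 82 groups of 4 or 6 libraries checked for a library far from the rest of its group, 5 held one, and chance flags about 1 in 20 groups. Among hosts, MIR31HG was at 6.62 CPM in coculture 5 and at 5.32 to 5.75 CPM in the other 5 coculture libraries. Among miRNAs, miR-21-5p was at 446932 CPM in control 1 and at 361938 to 370988 CPM in the other 3 controls. miR-21-3p was at 1022 CPM in control 4 and at 1300 to 1333 CPM in the other controls. In the same library miR-486-5p was at 1032 CPM, against 69.4 to 95.9 CPM in the other controls, and miR-486-3p at 1034 CPM, against 78.2 to 100 CPM in the other controls.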

How the results depend on the processing

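The calls of MIR3142HG, miR-146a-5p and miR-146a-3p held under every alternative run. Leaving out each library in turn, log2 fold changes were 3.12 to 3.58 for MIR3142HG, 2.31 to 2.66 for miR-146a-5p and 2.14 to 2.59 for miR-146a-3p, with edgeR adjusted p-values of up to 0.00539, 0.0100 and 0.0372. Counts of calls were then 112 to 204 genes higher, 4 to 36 genes lower, 1 to 2 hosts, 5 to 12 miRNAs higher, 0 to 1 miRNAs lower, 2 to 2 carried miRNAs, and 0 to 0 arm ratios and correlations. Uncalled members whose sign turned on leaving out a library spanned -0.039 to 0.019 (VMP1), -0.039 to 0.26 (miR-19a-3p), -0.22 to 0.098 (miR-19b-1-5p), -0.022 to 0.61 (miR-210-3p), -0.021 to 0.24 (miR-100-5p), -0.025 to 0.030 (miR-125b-1-3p) and -0.083 to 0.052 (miR-126-3p). DESeq2 called 333 genes higher and 106 lower, 2 hosts and 3 miRNAs lower. Without coculture 1 and 2, an omission chosen after seeing the data, 112 genes were lower. Calls of lower miRNAs numbered 0 with RLE factors, 0 with no scaling, 0 with limma-voom, 4 with no filter and 0 without coculture 1 and 2. The cause was not tested. For RNA-seq, coculture and control libraries of the same number correlated at 0.35, -0.08, 0.20 and 0.14, and those of different numbers at -0.28 to 0.30. For miRNA-seq, same-numbered libraries were at 0.37, -0.03, 0.21 and 0.36, and the others at -0.32 to 0.22. The highest value of each assay was between libraries of the same number, but the ranges overlapped. These values do not settle whether the numbers pair the samples, and the main fits left the numbers out. With the replicate block 100 genes were higher, 10 lower and 0 miRNAs lower. With numbers 1 to 4 alone under the replicate block 95 genes were higher, 10 lower, 14 miRNAs higher and 2 lower. The log2 fold changes of MIR17HG, VMP1 and miR-125b-1-3p were -0.045, 0.022 and 0.0099 in the first of these fits and -0.051, 0.020 and 0.011 in the second. miR-125b-1-3p was at 0.043 with RLE factors, 0.028 with no filter and 0.043 with DESeq2, miR-126-3p at 0.028, 0.012 and 0.028 in these 3 fits, and miR-100-3p at -0.00098 with no scaling. Without coculture 1 and 2 the values that turned were MIR210HG (-0.41), EGFL7 (-0.026), miR-19b-1-5p (0.11), miR-210-3p (-0.53), miR-100-5p (-0.039), miR-125b-5p (-0.074) and miR-21-3p (-0.038). None of these was called.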
